A study of Mus musculus with 12 samples.

Results

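The Timm and Tomm genes of the mouse encode the translocases that carry proteins into mitochondria. They were taken as all protein-coding genes of the raw count table whose symbol begins with Timm or Tomm, outside the first 10 Mb of chromosome 11, where none of them lies. This gave 26 of the 46983 genes in the table, spread over 16 chromosomes. RNA had been sequenced from osteoclasts, which resorb bone, differentiated in culture out of monocytes from the bone marrow in medium that contained M-CSF (20 ng/ml) together with RANKL (10 ng/ml). The cells came from C57BL/6 wildtype mice (WT) or from Mincle knockout mice on a C57BL/6 background (KO). Mincle, encoded by Clec4e, is a lectin receptor on macrophages and related cells, and the labels do not say how the gene was disrupted. On day 1 the pre-osteoclasts received, for 24 hours and at a ratio of 1 to 2, supernatant of viable osteocytes, which was the control, or of osteocytes made necrotic by serum starvation, and RNA was taken on day 3. All 4 combinations of genotype and supernatant had 3 libraries, no group received starved medium without osteocytes, and the labels do not name separate animals or cultures behind the replicates. The p-values therefore measure only the spread between these libraries, which may be technical.

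Nearly all mitochondrial proteins are made in the cytosol and pass the outer membrane through the TOM complex, in which Tomm40 forms the channel, Tomm20 and Tomm70a are receptors for incoming precursors, Tomm22 is a central receptor, and Tomm5, Tomm6 and Tomm7 are small subunits. Proteins with a presequence go on through the TIM23 complex of the inner membrane, carrier proteins of the inner membrane are inserted by the TIM22 complex, and the small TIM proteins escort hydrophobic precursors through the space between the membranes. Osteoclasts are rich in mitochondria. The comparisons address whether the RNA of this machinery differed between the supernatants, between the genotypes, and in its response to the supernatant with and without Mincle.

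The libraries held between 16382366 and 49612055 counts. WT viable 3 was the deepest, and the next held 25429661. Clec4e lay between 21.9 and 27.8 counts-per-million (CPM, scaled with TMM factors) in the WT libraries and between 1.56 and 2.43 CPM in the KO libraries, so the genotype labels and the RNA went the same way. All 10 osteoclast markers were measured, with a summed level of 15500 to 23400 CPM over the 12 libraries. KO necrotic 2 stood apart from KO necrotic 1 and 3, with chi-square values per degree of freedom of 22.7 and 18.9 over genes against 3.8 between the other two. WT necrotic 1 stood apart from WT necrotic 2 and 3 to a similar degree, with 16.7 and 22 against 6.55. A filter on low counts kept 14153 genes, 23 of the 26 members among them. Dropped were Tomm6 and Tomm20l with 2 counts each in all libraries together and Timm8a2 with 11.

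The 3 dropped genes differ in kind. Tomm20l, a paralog of Tomm20, had 1 count in WT viable 1, 1 in WT viable 3 and 0 elsewhere. Timm8a2, a paralog of Timm8a1, had at most 4 counts in a library. Both lay at or near the limit that a count of 0 allows (3 counts, between 0.0598 and 0.185 CPM), which covers counting error only. For Tomm6, the RNA level cannot be read from the table. In the annotation, 859 of its 1131 exon bases are shared with Gm21981, a protein-coding gene on the same strand, and that gene held 5 counts in all. How reads that fall on overlapping genes were treated is not given in the sources used here.

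Per kilobase of exon, the 23 measured genes spanned a wide range of levels. Tomm22 was highest with 75.17 CPM per kb as the mean of the 12 libraries, which put it at percentile 95.3 of all genes tested. Its libraries held 131, 122 and 122 CPM in WT viable, 137, 139 and 130 in WT necrotic, 110, 114 and 113 in KO viable, and 124, 121 and 128 in KO necrotic. Tomm22 was therefore lowest in the KO viable libraries, which did not overlap any other group. Next came the small subunit Tomm7 with 63.63 CPM per kb and the small TIM protein Timm13 with 58.84 CPM per kb, whose libraries overlapped on this scale in every group but KO necrotic. Tomm7 held 88.8, 70.8 and 64.8 CPM in WT viable, 85.5, 72 and 69.7 in WT necrotic, 57.6, 64.9 and 62.3 in KO viable, and 77.3, 72.5 and 72.7 in KO necrotic. Timm13 held 92.5, 82.6 and 81.5 CPM in WT viable, 101, 77.4 and 76.3 in WT necrotic, 61.7, 70.7 and 78.3 in KO viable, and 81.9, 78.7 and 85.9 in KO necrotic. In both genes the first library of each WT group was the highest of its group, so that their spread was wide.

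At the lower end stood Timm10b with 1.282 CPM per kb, Timm9 with 2.258 and Tomm40l, the paralog of the channel gene, with 2.924. Timm9 and Timm10 form the main small TIM chaperone together, and Timm10 had 23.2 CPM per kb. Timm10b, whose human counterpart is a small TIM protein of the TIM22 complex, ran from 3.99 to 5.24 CPM over the 12 libraries with all groups overlapping. Timm9 held 11.5, 10.5 and 9.69 CPM in WT viable, 10.9, 9.76 and 10.6 in WT necrotic, 9.09, 7.08 and 9.27 in KO viable, and 9.85, 8.37 and 9.49 in KO necrotic. The KO viable libraries of Timm9 lay below all WT libraries. Tomm40l held 17.4, 14.4 and 15.9 CPM in WT viable, 15.4, 12.4 and 15.9 in WT necrotic, 13.7, 15.3 and 15 in KO viable, and 15.1, 14.9 and 14.8 in KO necrotic, and every group of it overlapped every other. Its exons share 3304 bases with Nr1i3 on the opposite strand, a gene with 7 counts in all. The exons of Timm10b share 277 bases with the opposite-strand gene Arfip2, which had a mean of 34.6 CPM, and 376 bases with the same-strand gene Gm45799, so its level is uncertain without a known strand setting.

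**Figure D1:**
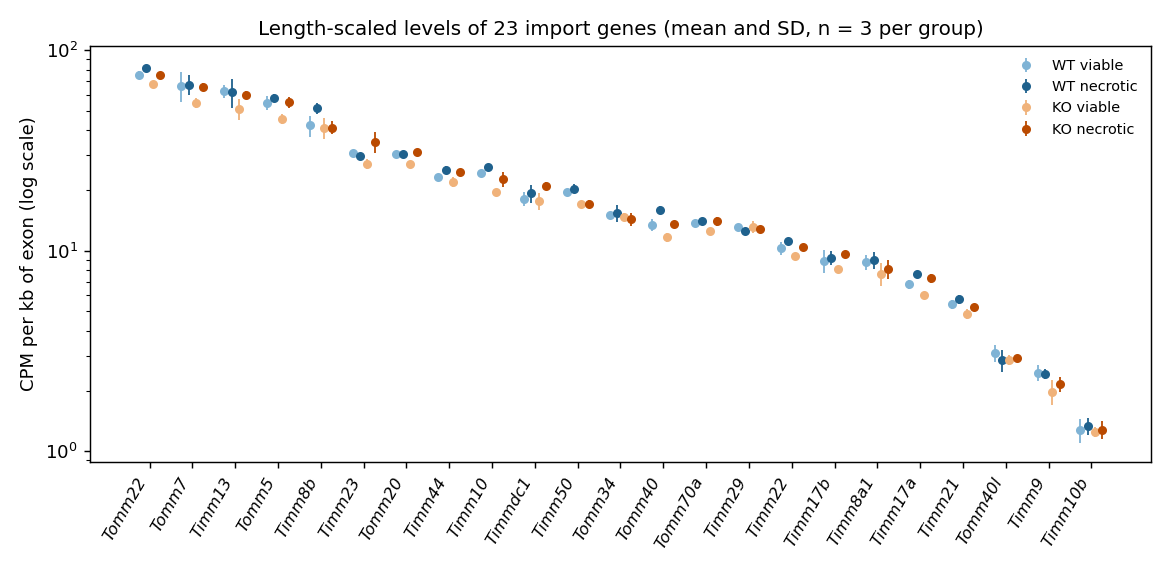
Levels of the 23 measured Timm and Tomm genes in CPM per kilobase of exon on a log axis, ordered by the mean of 12 libraries, with 1 point per group (mean) and bars of 1 SD (n = 3). Levels fall from 75.17 CPM per kb for Tomm22 to 1.282 for Timm10b, and for most genes the KO viable point is the lowest of its gene.

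The promoters of the 4 genes on which the comparisons below turn most (Tomm40 and Timm17a for the supernatant, Timm23 for the response in KO cells, Timm10 for the genotype) are printed from RefSeq with build GRCm38.p6, from 250 bases before to 50 after the start of the gene. The Tomm40 stretch is chr7:19715380-19715679 and that of Timm17a chr1:135313688-135313987, both on the minus strand. The Timm23 stretch is chr14:32201842-32202141 on the minus strand and that of Timm10 chr2:84826771-84827070 on the plus strand. Capitals mark matches, on either strand, to 5 motifs: the ETS core CCGGAAG, YY1 as AAGATGG, the CCAAT box as CCAAT, the E-box CACGTG and the GC box GGGCGG.
Tomm40: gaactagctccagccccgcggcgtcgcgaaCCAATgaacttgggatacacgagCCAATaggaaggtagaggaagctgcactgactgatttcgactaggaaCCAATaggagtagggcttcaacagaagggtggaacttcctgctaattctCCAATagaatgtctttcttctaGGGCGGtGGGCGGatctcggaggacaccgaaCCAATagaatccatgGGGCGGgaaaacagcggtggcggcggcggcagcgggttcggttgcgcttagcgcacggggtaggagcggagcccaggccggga
Timm17a: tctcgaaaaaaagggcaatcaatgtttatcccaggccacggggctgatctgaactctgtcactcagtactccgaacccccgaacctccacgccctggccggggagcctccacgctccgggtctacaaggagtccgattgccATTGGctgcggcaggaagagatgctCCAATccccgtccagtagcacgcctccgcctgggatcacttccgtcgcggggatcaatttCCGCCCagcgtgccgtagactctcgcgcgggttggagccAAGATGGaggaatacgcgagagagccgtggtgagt
Timm23: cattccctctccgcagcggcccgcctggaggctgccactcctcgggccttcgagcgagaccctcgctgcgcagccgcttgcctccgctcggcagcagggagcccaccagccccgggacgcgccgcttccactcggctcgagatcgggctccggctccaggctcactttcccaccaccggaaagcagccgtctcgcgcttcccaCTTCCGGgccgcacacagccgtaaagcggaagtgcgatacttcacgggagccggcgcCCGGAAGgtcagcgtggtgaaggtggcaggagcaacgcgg
Timm10: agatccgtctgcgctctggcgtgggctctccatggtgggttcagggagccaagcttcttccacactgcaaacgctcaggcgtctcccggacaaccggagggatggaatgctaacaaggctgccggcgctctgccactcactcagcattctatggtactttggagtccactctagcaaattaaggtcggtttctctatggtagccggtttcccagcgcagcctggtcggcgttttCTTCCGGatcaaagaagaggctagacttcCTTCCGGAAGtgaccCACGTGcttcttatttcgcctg
The 4 stretches differ in what they hold. Tomm40 has 8 matches, all to the CCAAT and GC boxes, Timm17a has 4 matches, to the CCAAT box, the GC box and YY1, Timm23 has 2 matches to the ETS core, and Timm10 has 4, to the ETS core and the E-box, where the last run of capitals before the E-box holds overlapping ETS matches on both strands. Of the 26 members, 23 had a promoter matched here, the 3 dropped genes among them, and Timm21, Tomm40l and Tomm7 had none. Timm21 was left out of the matching beforehand because of its position in the genome. The promoters of protein-coding genes used for comparison were not restricted in that way. Why Tomm40l and Tomm7 have no match was not tested. Among the 23 matched members, 10 have an ETS core (43.5%), against 12.9% of 17492 promoters of protein-coding genes. An E-box is present in 21.7% of them against 8.91%, a CCAAT box in 30.4% against 42.3%, a GC box in 47.8% against 49.2% and YY1 in 13% against 7.18%. These shares describe letters in this window and were not tested. Of the 10 genes higher after necrotic supernatant over both genotypes, described below, 4 have the ETS core (Tomm22, Tomm70a, Timm23 and Timm10). This is a similar share to the 10 of 23 over the matched members.

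In WT osteoclasts, necrotic against viable supernatant was accompanied by more RNA of the outer membrane channel Tomm40 and of Timm17a, a channel subunit of the TIM23 complex, and no member fell. Tomm40 held 65.6, 59.6 and 57.8 CPM in the WT viable libraries and 68.7, 73.8 and 74.6 in the WT necrotic ones. The groups did not overlap, and the rise was 0.25 on the log2 scale (standard error, SE, 0.06, adjusted p = 0.0153 from edgeR's quasi-likelihood test). Timm17a held 56.4, 50.9 and 53.6 CPM against 60.6, 59.5 and 61.6, again without overlap, with a rise of 0.18 (SE 0.05, adjusted p = 0.049). The 2 of 23 members called higher stand beside 4.81% of all 14153 genes, and the 0 called lower beside 4.5%. At an unadjusted p under 0.05 there were 5 members and 3577 of all 14153 genes, a similar share. As these are bulk cultures, a change in the share of a cell type and a change in RNA per cell cannot be told apart.

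Over the 23 genes the median log2 fold change in WT was 0.06, with 17 above 0, against -0.01 over all genes tested. The libraries did not overlap for 5 members in the higher direction and 1 in the lower (12.4% and 12% of all genes). The receptor Tomm20 hardly moved in WT, with a log2 fold change of -0.00 (SE 0.04), and held 151, 149 and 149 CPM against 153, 148 and 148. Timm8b, a small TIM protein, had the highest fold change without a call, at 0.29 (SE 0.10, adjusted p = 0.0811), and held 24.8, 21.2 and 19.7 CPM against 25.1, 28.5 and 26. Its exons share 81 of 518 bases with Nkapd1 on the opposite strand, which held 6316 counts, so this level too is uncertain without a known strand setting. The calls changed when single libraries were left out: the count was 0 without WT viable 2, without WT viable 3 or without WT necrotic 2, 4 without WT viable 1, and 1 without any 1 of the other 8, and it was 0 in a fit of the WT groups alone. The count over all genes moved with it, from 681 higher and 637 lower to 385, 603 and 528 in either direction without the first 3 of these libraries and to 2015 without WT viable 1.

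In KO osteoclasts, 6 of 23 members rose after necrotic supernatant and none fell, beside 4% of all genes called higher and 3.43% called lower. They were 4 TOM subunits (Tomm40, Tomm20, Tomm70a and Tomm5) and the channel subunits Timm17a and Timm23 of the TIM23 complex. Timm17a held 48.3, 46.6 and 47 CPM in KO viable and 57.4, 54.9 and 60.9 in KO necrotic. All 3 necrotic libraries stood above the viable ones, and the rise was 0.29 (SE 0.05, adjusted p = 0.00502). Tomm20 held 127, 137 and 133 CPM against 155, 150 and 154, a rise of 0.21 (SE 0.04, adjusted p = 0.00666), also without overlap.

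Timm23, the central channel protein of the inner membrane, held 45.7, 48.6 and 51.5 CPM in KO viable and 57.5, 71.2 and 58.6 in KO necrotic. The groups did not overlap, KO necrotic 2 was the highest of all 12 libraries, and the rise was 0.36 (SE 0.07, adjusted p = 0.00838). Without that library it was 0.26 (adjusted p = 0.0277). Of the others called, Tomm5 rose by 0.27 (adjusted p = 0.0281) from 41, 36.9 and 40.9 CPM to 46.1, 45.8 and 51.3. Tomm40 rose by 0.22 (adjusted p = 0.0338) from 55.1, 49.8 and 52.9 CPM to 62.6, 59.2 and 62.4. Tomm70a, the receptor for carrier precursors, rose by 0.16 (adjusted p = 0.049), from 119 to 126 CPM in the viable libraries to 130 to 145 in the necrotic ones. All 3 pairs of groups were separate.

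The median log2 fold change over the 23 genes in KO was 0.16, with 21 above 0, against -0.00 over all genes. For 14 members the necrotic libraries lay above the viable ones without overlap, beside 16.5% of all genes. Not called were, among others, Tomm7 with 0.27 (SE 0.10, adjusted p = 0.115), Timm13 with 0.23 (SE 0.10), and Timm50, the TIM23 receptor subunit, with 0.01 (SE 0.06). The rises of Timm17a, Tomm20 and Timm23 passed the threshold in all 22 alternative analyses, Tomm5 and Tomm40 in 16 each and Tomm70a in 10. The count of 6 fell to 3 without KO viable 2, KO viable 3, KO necrotic 1 or KO necrotic 3, and was 9 without WT viable 1 and 11 in a fit of the KO groups alone. Over all genes, 566 were higher and 486 lower with all libraries. In either direction, 548, 501, 484 and 383 passed without the libraries that gave 3 members, in that order. Without WT viable 1 there were 1277. Without KO viable 1 there were 607, with 6 members, and without KO necrotic 2 there were 647, with 5 members.

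**Figure D2:**
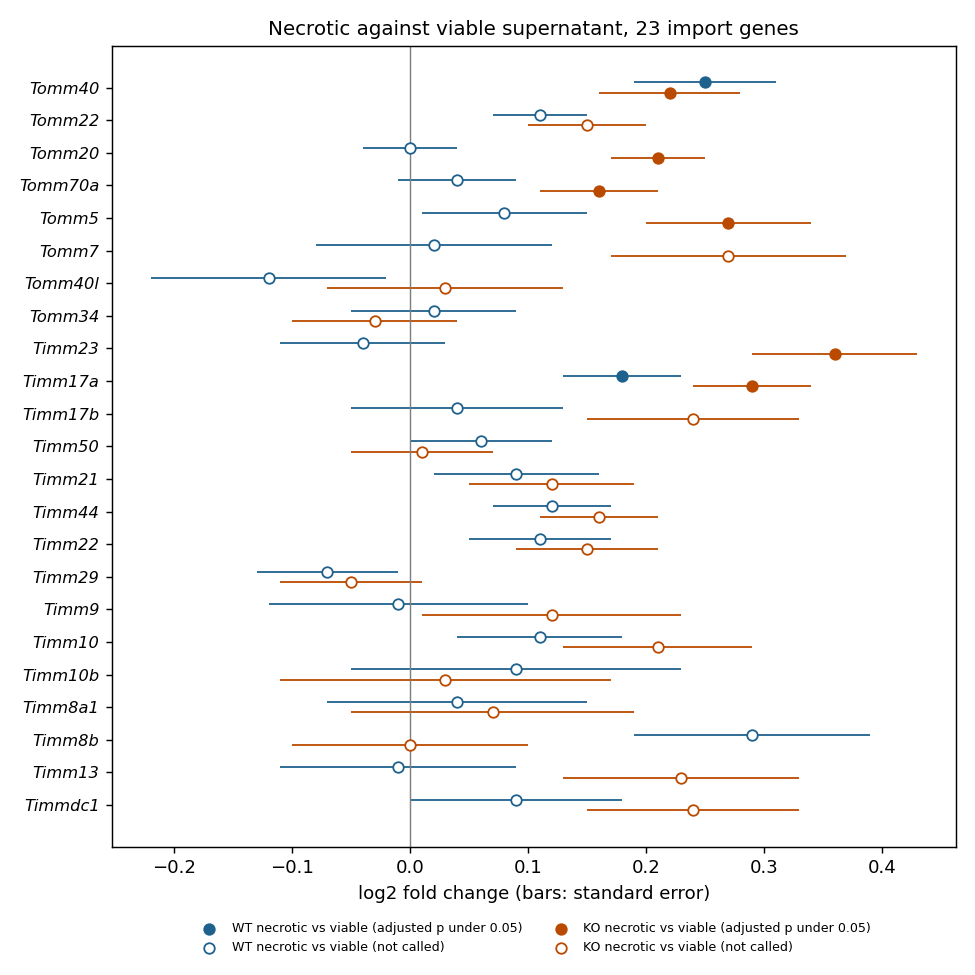
Log2 fold change of necrotic against viable supernatant in WT (blue) and KO (orange) osteoclasts for the 23 measured genes, with bars of 1 standard error and filled points at an adjusted p under 0.05. In WT 2 points are filled and in KO 6, and 21 of the 23 KO points lie above 0.

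Averaged over both genotypes, 10 of 23 members were higher after necrotic supernatant and none lower, beside 9.49% and 9.93% of all genes. The median was 0.13 against -0.00. The TOM subunits Tomm40 (0.24, adjusted p = 0.00109), Tomm5 (0.18), Tomm22 (0.13), Tomm20 (0.10) and Tomm70a (0.10) were among them. From the inner membrane came Timm17a (0.23, adjusted p = 0.000649), Timm23 (0.16), Timm44 (0.14), which tethers the matrix motor to the TIM23 channel, and Timm22 (0.13), the channel of the TIM22 complex, and from the small TIM proteins Timm10 (0.16). Timm44 held 87.1, 85.1 and 84.6 CPM in WT viable, 97.4, 92.6 and 89.5 in WT necrotic, 84.9, 75.9 and 81.4 in KO viable, and 89.5, 89.8 and 91 in KO necrotic (adjusted p = 0.00963), so that within each genotype the necrotic libraries lay above the viable ones. The cytosolic partner Tomm34 (-0.01), the paralog Tomm40l (-0.05) and Timm29 (-0.06), a TIM22 subunit, had negative values near 0. The count was 5 without WT viable 2, KO viable 2 or KO necrotic 3, 6 without WT viable 3, WT necrotic 2 or KO viable 1, and 13 without WT viable 1. Over all genes, 1343 higher and 1406 lower became 1929, 2086 and 2001 in either direction where 5 members passed, in that order. Where 6 passed there were 2098, 2104 and 2500, and 3380 without WT viable 1. With replicate number as a block the count of members was 6, and Timm10, Timm22, Timm23 and Tomm70a no longer passed.

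Markers of cell types moved with the supernatant too. All 10 osteoclast markers were higher after necrotic supernatant in WT and in KO, and their summed level was 17500 to 17800 CPM in WT viable, 22100 to 23400 in WT necrotic, 15500 to 15800 in KO viable and 19600 to 20400 in KO necrotic. Of 8 macrophage markers, 5 were higher and 1 lower in WT, and 4 higher and 1 lower in KO, with sums of 6160 to 6760, 7730 to 7870, 7080 to 7130 and 7550 to 8030 CPM in the same order of groups. Of 5 stromal and bone markers tested, 3 were lower in WT and 0 in KO. Of 7 neutrophil markers 3 were lower in each genotype and 1 was higher in WT, of 6 dendritic markers 2 were lower in each, of 5 lymphoid markers 2 were lower in WT and 1 in KO, and of 4 erythroid and platelet markers none passed. In no list was a marker at 0 in all libraries. The part of these cell types in the Timm and Tomm differences was not tested.

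Between the genotypes under viable supernatant, all 23 fold changes were below 0, and 3 members were lower in KO: Tomm20, Tomm5 and Timm10. This stands beside 2.97% of all genes called lower and 2.87% called higher, of which the members had 0. Timm10 held 20.1, 20.4 and 18.9 CPM in WT viable and 16.6, 15.7 and 15.9 in KO viable. The groups were separate, and the difference was -0.30 (SE 0.08, adjusted p = 0.0346). Tomm5 held 51.5, 44 and 47.2 CPM in WT viable, all above the KO viable libraries given earlier, with a difference of -0.26 (SE 0.07, adjusted p = 0.0388). For Tomm20 the difference was -0.18 (SE 0.04, adjusted p = 0.0234), and the 149 to 151 CPM of WT did not overlap the 127 to 137 CPM of KO.

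The median over the members was -0.16, against -0.01 over all genes, and the libraries of 13 members lay lower in KO without overlap, beside 15.2% of all genes. Just above the threshold were Tomm40 with -0.21 (adjusted p = 0.0501), Timm50 with -0.20 (0.051), Tomm22 with -0.16 (0.0535) and Timm17a with -0.18 (0.0587). The number of negative values was 21 with median-ratio factors and 18 with offsets for exon length and GC content, so not every member keeps its sign. With these offsets Timm10 and Tomm5 were no longer called, Tomm20 still was, and Timm17a and Tomm70a were added. Of 5 stromal and bone markers, 4 were lower in KO under viable supernatant, with a sum of 66.4 to 101 CPM in WT and 15.8 to 46.5 CPM in KO, and 2 of 10 osteoclast markers were lower. Of 7 neutrophil markers 1 was lower, of 8 macrophage markers 1 was higher, and no marker of the other lists passed. The part of these cell types in the differences was not tested. The count of 3 fell to 0 without WT viable 1, KO viable 1 or KO viable 3 and in a fit of both viable groups alone, was 1 without WT viable 2 or KO viable 2, 5 without WT viable 3 or WT necrotic 3, and 7 without WT necrotic 1 or with upper-quartile factors. Over all genes, 406 were higher and 421 lower with all libraries. In either direction there were 306, 445 and 228 without the libraries that left 0 members, in that order. There were 315 and 227 where 1 member was left, and 894 and 974 where 5 passed. Without WT necrotic 1 there were 1060, and with upper-quartile factors 922.

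Under necrotic supernatant, Tomm40 and Timm50 were lower in KO and no member was higher, beside 3.12% of all genes lower and 5% higher. Timm50 held 56.7, 51.4 and 56 CPM in WT necrotic and 45.3, 44.8 and 48.8 in KO necrotic, against 54.5, 53 and 50.4 in WT viable and 46.9, 45.1 and 45.5 in KO viable. It was thus lower in every KO library than in every WT library, whatever the supernatant, and the difference under necrotic supernatant was -0.24 (SE 0.06, adjusted p = 0.0202). Tomm40 differed by -0.24 (SE 0.06, adjusted p = 0.0239), and its KO necrotic libraries (59.2 to 62.6 CPM) lay near those of WT viable (57.8 to 65.6 CPM). The median over the members was -0.07 against -0.01, with 17 values below 0. The libraries were lower without overlap for 7 members and higher for 1, Timm23, beside 14.8% and 14.9% of all genes. Of 7 neutrophil markers 5 were lower in KO under necrotic supernatant, with a sum of 1010 to 1150 CPM in WT and 883 to 930 CPM in KO, as were 3 of 10 osteoclast markers. Of 8 macrophage markers 1 was higher, and no marker of the other lists passed. The part of these cell types in the differences was not tested. With length and GC offsets neither Tomm40 nor Timm50 passed, and the count was 0 without KO necrotic 1 or 2 and 1 without WT necrotic 2, WT necrotic 3 or KO necrotic 3. Over all genes, 708 were higher and 442 lower with all libraries, and 765 passed in either direction with the offsets. There were 163 and 341 without KO necrotic 1 and 2. Where 1 member was left there were 250, 1380 and 659, in the order given. With DESeq2, or with no filter on low counts, 3 members were lower (Timm8b in addition) and 1, Timm23, was higher.

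**Figure D3:**
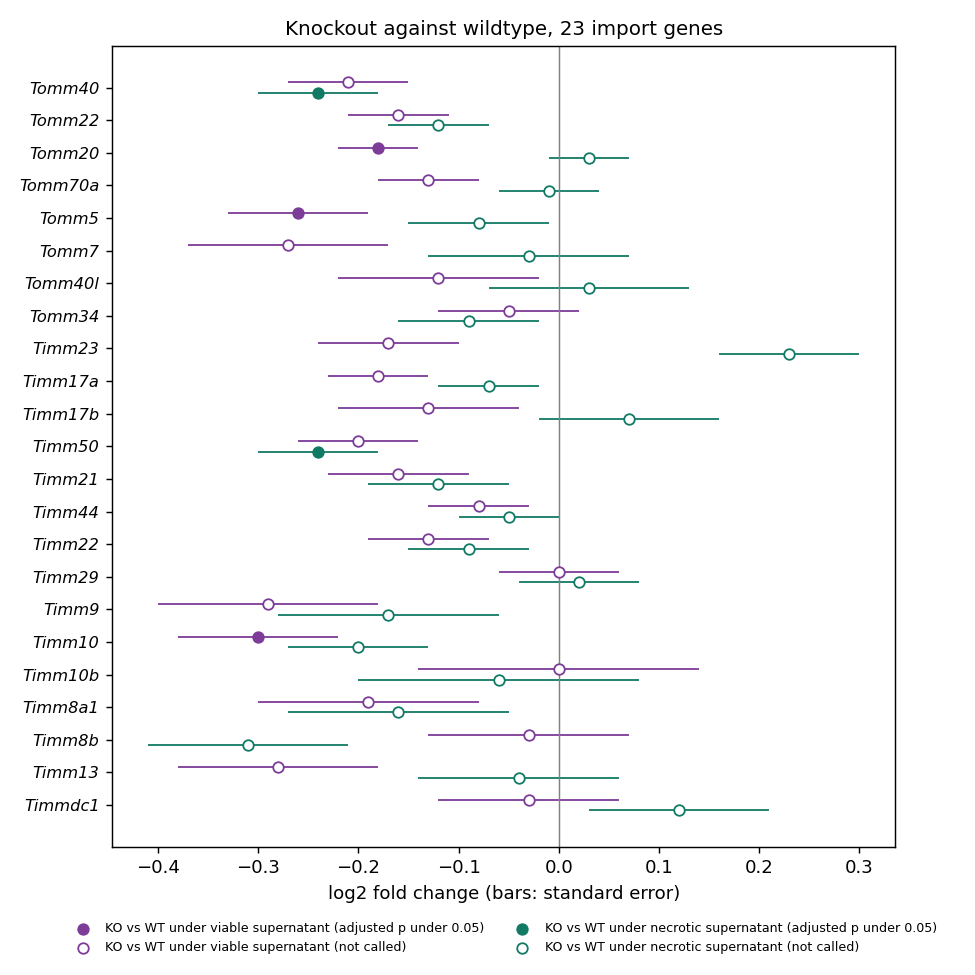
Log2 fold change of KO against WT under viable (purple) and necrotic (green) supernatant for the 23 measured genes, with bars of 1 standard error and filled points at an adjusted p under 0.05. Under viable supernatant all 23 points lie at or below 0 and 3 are filled, and under necrotic supernatant 2 are filled and Timm23 lies to the right at 0.23.

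Averaged over both supernatants, 6 of 23 members were lower in KO and none higher, beside 9.74% and 10.7% of all genes. The largest difference was that of Timm10 (-0.25, adjusted p = 0.00482), which held 20.9, 20.9 and 22.1 CPM in WT necrotic and 17.5, 17.6 and 20.4 in KO necrotic. Tomm40 (-0.22, adjusted p = 0.00232), Timm50 (-0.22, adjusted p = 0.00204), Tomm5 (-0.17), Tomm22 (-0.14) and Timm17a (-0.12) were the others. Summed over all 26 members, the level was 1210 ± 48.7 CPM in WT viable (SD, n = 3), 1260 ± 33.8 in WT necrotic, 1080 ± 14.5 in KO viable and 1210 ± 28.3 in KO necrotic. The KO viable libraries (1060 to 1090 CPM) were below all others. Over both supernatants 7 of 7 neutrophil, 5 of 5 stromal and bone and 4 of 10 osteoclast markers were lower in KO too. Of 8 macrophage markers 1 was higher and 1 lower, of 4 erythroid and platelet markers 1 was higher, and no dendritic or lymphoid marker passed. The part of these cell types was not tested. With upper-quartile factors 11 members were lower, without KO viable 2, KO necrotic 1 or KO necrotic 2 there were 4, and without WT viable 3 there were 9. Over all genes, 1521 higher and 1378 lower became 3146 in either direction with upper-quartile factors. They became 1960, 1885 and 2081 without the libraries that left 4 members, in that order, and 3084 without WT viable 3.

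Whether the response to the supernatant differed between the genotypes was tested as the difference of both responses (KO minus WT). By edgeR's quasi-likelihood test 0 of 23 members and 0 of all 14153 genes (0%) passed, as did 0 members with DESeq2 or limma voom, while 1 member, Timm23, passed with no filter on low counts, and 2 members and 1064 of all genes had an unadjusted p under 0.05. Those 2 members were Timm23 and Tomm20. For Timm23 the response was 0.40 higher in KO (SE 0.10, 95% interval 0.18 to 0.62, adjusted p = 0.571), with -0.04 in WT and 0.36 in KO. The WT libraries held 55.9, 53.7 and 54.2 CPM under viable and 54.2, 51.2 and 53.4 under necrotic supernatant, so that Timm23 was below WT in KO viable and above WT in KO necrotic. For Tomm20 the difference was 0.21 (95% interval 0.09 to 0.33, adjusted p = 0.571). The other members' values ran from -0.29 for Timm8b to 0.25 for Tomm7, and the median was 0.09 against 0.01 over all genes. The calls in KO and their absence in WT thus do not show that the genotypes responded differently. This holds for Timm23 too, whose difference passed with no filter and in no other setting tried. The KO viable libraries enter both the response in KO and the comparison with WT under viable supernatant, so a low value there moves both.

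**Figure D4:**
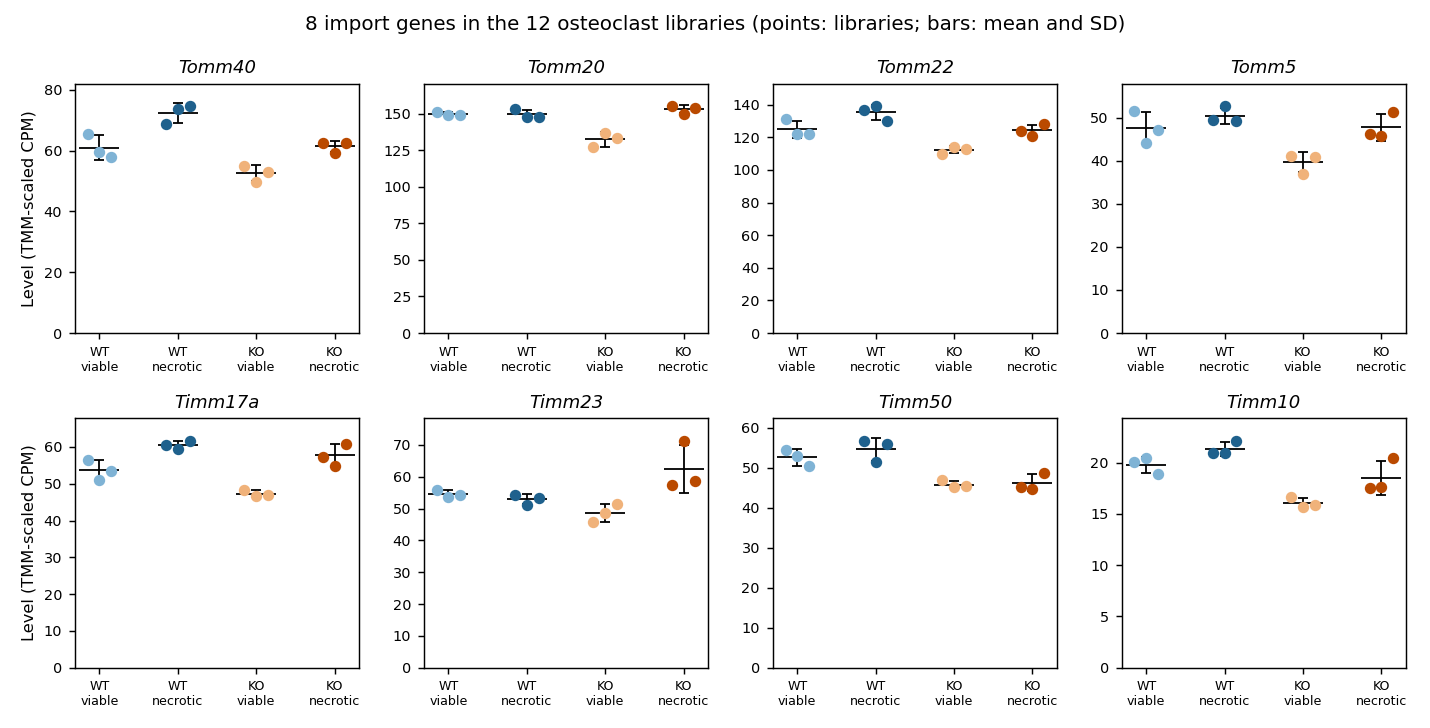
Levels of 8 Timm and Tomm genes in TMM-scaled CPM, with 1 point per library, a line at the group mean and bars of 1 SD (n = 3), on axes that start at 0. KO viable is the lowest group mean in 8 of 8 panels, and for Timm23 KO necrotic 2 stands at 71.2 CPM above all other libraries.

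Ratios within a library, which do not depend on scaling, were compared for 4 pairs of paralogs or partners with an exact two-sided permutation test over the 12 libraries, within genotype or within supernatant (8 tests, smallest possible p 0.005). The log2 count ratio of Tomm40 to its paralog Tomm40l was 1.94 ± 0.10 in WT viable, 2.32 ± 0.22 in WT necrotic, 1.84 ± 0.15 in KO viable and 2.04 ± 0.04 in KO necrotic (SD, n = 3). It was 0.28 higher after necrotic supernatant (exact permutation p = 0.01, adjusted 0.08) and 0.19 lower in KO, a difference of -0.19 (exact permutation p = 0.035, adjusted 0.14), so neither passed after adjustment. Timm17b, the X-linked counterpart of Timm17a, held 26.3, 20.6 and 21.6 CPM in WT viable, 25.6, 23.1 and 21.8 in WT necrotic, 20.3, 21.3 and 20.6 in KO viable, and 23.7, 25.6 and 24.3 in KO necrotic. In the comparisons of 2 groups it was separate only between both KO groups, and the ratio of Timm17a to it moved by 0.09 with the supernatant (exact permutation p = 0.205, adjusted 0.352). Timm8a1, whose human counterpart is mutated in a deafness and dystonia syndrome, held 11.2, 13.3 and 13 CPM in WT viable, 13.1, 11.5 and 13.9 in WT necrotic, 11.1, 9.38 and 12.2 in KO viable, and 11.5, 10.2 and 12.8 in KO necrotic. All its groups overlapped. Timm8b held 24.4, 19.8 and 19.8 CPM in KO viable and 21.9, 19.5 and 22.6 in KO necrotic, and under necrotic supernatant it was lower in KO without overlap (-0.31, adjusted p = 0.0661). The ratio of Timm8a1 to it moved by -0.08 with the supernatant (exact permutation p = 0.52). The ratio of Timm9 to Timm10 moved by -0.10 with the supernatant (exact permutation p = 0.22) and by 0.01 with the genotype (exact permutation p = 0.935).

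Of the remaining members, Timm22 ran from 29.1 to 36.1 CPM, Timm29, which shares 107 exon bases with the opposite-strand gene Yipf2, from 38.6 to 43.5, Timm21 from 17.1 to 22.6, Tomm34 from 40.8 to 50 and Timmdc1, which takes part in complex I assembly and not in import, from 29.5 to 39. None of these 5 passed in a comparison of 2 groups. Over the 23 measured genes and 4 groups the coefficient of variation among replicates had a median of 5.22% and reached 16.7%, for Tomm7 in WT viable.

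Genes that work with the translocases were counted in 9 lists of 76 genes, 75 of them tested. After necrotic supernatant 12 were higher and 2 lower in WT, 14 higher and 3 lower in KO, and 28 higher and 3 lower over both genotypes. The shares over all genes are those given for the translocases, 4.81% and 4.5% in WT, 4% and 3.43% in KO, and 9.49% and 9.93% over both. The presequence motor, which pulls proteins into the matrix, had 1 of 7 higher in WT and 3 of 7 in KO, with Dnajc15 at 0.22 (adjusted p = 0.0463) and 0.28 (adjusted p = 0.0163) and Hspa9, the motor's Hsp70, at 0.20 in KO (adjusted p = 0.0214). For sorting and assembly in the outer membrane 3 of 6 were higher in WT and 2 of 6 in KO, where Samm50, the barrel of the assembly machinery, rose by 0.24 (adjusted p = 0.00325). Of 9 genes for cristae organisation (MICOS) and inner membrane insertion 3 were higher in each genotype, and Chchd3 rose by 0.25 (adjusted p = 0.0186) and 0.30 (adjusted p = 0.0096). Carriers, the cargo of the TIM22 complex, moved both ways: the iron carrier gene Slc25a37 fell by 0.41 in WT (adjusted p = 0.00247) and by 0.29 in KO (adjusted p = 0.0162), whereas the adenine nucleotide carrier gene Slc25a4 rose by 0.24 in KO (adjusted p = 0.0104). Of the stress and mitophagy genes, Pink1 rose by 0.27 in WT (adjusted p = 0.0168). Of the matrix chaperones and proteases, Afg3l2 rose by 0.16 in WT (adjusted p = 0.0354) and 0.20 in KO (adjusted p = 0.014). The medians were 0.05 and 0.07 for the processing peptidases and -0.02 and 0.15 for the disulfide relay, without a call in WT or KO, and the biogenesis regulators had 1 higher (Esrra, 0.21) and 1 lower (Pprc1, -0.26) in KO.

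Between the genotypes, 0 partners were higher and 8 lower in KO under viable supernatant, 2 higher and 2 lower under necrotic supernatant, and 4 higher and 21 lower over both, beside 2.87% and 2.97%, 5% and 3.12%, and 10.7% and 9.74% of all genes higher and lower. Chchd4, the oxidoreductase that traps small TIM proteins in the intermembrane space, held 31.4 ± 1.25 CPM in WT viable and 25 ± 1.12 in KO viable (SD, n = 3), a difference of -0.33 (adjusted p = 0.00602). The matrix protease gene Clpp differed by -0.38 (adjusted p = 0.0188) and the chaperonin gene Hspd1 by -0.24 (adjusted p = 0.0401). The median over the 75 partners was -0.10 under viable and -0.08 under necrotic supernatant. For the difference of the responses 0 partners passed, with a median of 0.03.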

How the data were processed

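The deposited values are raw, unnormalized counts for 46983 Ensembl genes, 1 column per library, each named by its sample title. The submitters' processing notes name CASAVA, HISAT2 2.0.5, HTSeq 0.6.1 and the GRCm38 genome. Neither the strand setting nor the handling of multi-mapping reads is stated in the sources used here, so genes with near-identical copies or overlapping genes are uncertain. Symbols, positions and exon lengths came from GENCODE M21 on GRCm38, which matched 46488 identifiers and left 495 unmatched.

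filterByExpr of edgeR 4.0.16 (R 4.3.3) kept 14153 genes. TMM factors lay between 0.971 and 1.02. All 12 libraries entered 1 quasi-likelihood fit of the 4 group means (8 residual degrees of freedom), with two-sided tests, Benjamini-Hochberg adjustment over all genes and a threshold of 0.05. The SE is the size of the log2 fold change divided by the square root of F, and levels are TMM-scaled CPM. The code was tested on simulated data. Full values are given for up to 3 called members per comparison by smallest p, for the 3 highest and lowest per kb, for paired and for dropped members. Up to 2 partners per list and comparison are named. The members, lists, pairs and motifs were chosen with earlier results of these data known. Other settings tried were RLE (median-ratio) factors, upper-quartile factors, no filter, DESeq2 1.42.0, limma 3.58.1 voom, fits of the compared groups alone, replicate number as a block, offsets for length and GC content, the deepest library thinned, and leaving out each library.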

Additional observations from a re-analysis of the deposited data

Results flagged for a closer look

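Timm23 stood below WT in all 3 KO libraries under viable supernatant and above WT in all 3 under necrotic supernatant, and both pairs of groups were separate. The difference of both genotype effects was 0.40 on the log2 scale (SE 0.10), and edgeR's quasi-likelihood test of that difference gave an adjusted p of 0.571 over all genes, so it did not pass. Neither single genotype comparison passed, with -0.17 (adjusted p = 0.18) under viable and 0.23 (adjusted p = 0.0585) under necrotic supernatant. With no filter on low counts, Timm23 passed both for the difference and for the genotype under necrotic supernatant, and with DESeq2 for the latter. Without KO necrotic 2, the library with the highest Timm23, the rise within KO was 0.26.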

How the results depend on the processing

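No called fold change of a Timm or Tomm gene changed direction under any alternative. The directions of single partners and markers were not checked under the alternatives. With the compared groups alone, the number of members called was 0 for the supernatant in WT, 11 for the supernatant in KO and 0 for the genotype under viable supernatant. With upper-quartile factors it was 7 for the genotype under viable supernatant and 11 for the genotype over both. With no filter it was 6 for the genotype under viable supernatant, 4 under necrotic supernatant and 1 for the difference of the responses, and with DESeq2 it was 6 under viable and 4 under necrotic supernatant. With length and GC offsets, without and with the replicate block, it was 0 for the genotype under necrotic supernatant. The fits of compared groups hold fewer libraries, and the cause of these changes was not tested for any setting. Leaving out 1 library at a time gave 0 to 4 calls for the supernatant in WT, 3 to 9 in KO, 5 to 13 over both genotypes, 0 to 7 for the genotype under viable supernatant, 0 to 3 under necrotic supernatant, 4 to 9 over both, and 0 to 0 for the difference. Timm17a in WT, with an adjusted p of 0.049, passed in 9 of 22 alternatives, with an adjusted p of 0.0143 to 0.21.

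Replicate numbers are shared by the groups. Correlations over genes of the deviations from the group mean were -0.0864 to 0.143 for same-numbered libraries and -0.175 to 0.096 for differently numbered ones. For the supernatant in KO the same-numbered values (0.0127 to 0.0615) lay above all others (at most 0.00531). In the other comparisons of 2 groups they overlapped. The labels do not say whether a number marks a shared source. With replicate number as a block, 6 members passed for the supernatant over both genotypes, 2 in WT, 5 in KO, 3 for the genotype under viable supernatant, 2 under necrotic supernatant, 7 over both and 0 for the difference.

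The ratio of Tomm40 to Tomm40l moved by 0.22 to 0.32 with the supernatant when 1 library was left out (exact permutation, adjusted p 0.04 to 0.16) and by -0.23 to -0.13 with the genotype (adjusted p 0.04 to 0.38). For Timm17a to Timm17b the ranges were 0.05 to 0.12 and -0.13 to -0.06, for Timm8a1 to Timm8b -0.17 to -0.01 and -0.09 to 0.05, and for Timm9 to Timm10 -0.15 to -0.06 and -0.04 to 0.06. Depth limits the low genes most: Timm10b rested on 1227 counts in all libraries together and Tomm20 on 39995.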
